A study of Mus musculus with 9 samples.

Results

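The 45 proteasome and immunoproteasome genes were all genes of the feature list whose symbol begins with Psma, Psmb, Psmc, Psmd or Psme followed by a digit, 45 of 31053 genes in all. Femur bone marrow cells of 9 female mice aged 9 to 10 weeks were profiled by droplet-based single-cell RNA sequencing with 3′ tags and unique molecular identifiers (UMIs, 1 per captured RNA molecule). The groups were 3 New Zealand Black (NZB) mice, 3 New Zealand White (NZW) mice and 3 mice of their F1 hybrid (NZBWF1), a model of systemic lupus erythematosus, and each library was 1 mouse. All were purchased and delivered together, the labels name no treatment and no engineered allele, and no strain from outside this cross was included.

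After removing barcodes under 1000 UMIs, under 500 genes or over 10% mitochondrial UMIs, 39051 cells remained, with 8106539 to 18663189 UMIs per mouse. Cells were placed by marker genes into 16 classes holding 32065 cells. Left out as possible doublets were 4146 cells in which an unrelated class scored over 0.6 times the top class score. The median mitochondrial share of the NZB libraries, 2.95 to 3.97%, lay below that of the NZW libraries, 4.22 to 4.72%, and of the NZBWF1 libraries, 4.32 to 4.65%. Of the kept cells, 342 shared a barcode sequence with a cell of another library. Levels are given as CPM, the UMIs of a gene divided by all UMIs of that class in that mouse and scaled to 1000000, and the mouse is the unit of every test.

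The proteasome degrades proteins marked with ubiquitin. Its 20S core is a barrel of alpha rings and beta rings, the 19S cap recognizes, unfolds and feeds in the substrate with a ring of ATPases, and PA28 activators can take the place of the cap. In cells exposed to interferon gamma, and constitutively in many lymphoid cells, the catalytic subunits encoded by *Psmb5*, *Psmb6* and *Psmb7* are replaced by those of *Psmb8*, *Psmb9* and *Psmb10*, and the resulting immunoproteasome yields peptides suited to MHC class I molecules.

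The 45 genes comprised 8 of the alpha ring, 4 non-catalytic beta subunits, 3 constitutive and 3 inducible catalytic subunits, the thymic subunit *Psmb11*, 6 ATPases and 11 non-ATPase subunits of the 19S cap, 3 chaperones of cap assembly (*Psmd5*, *Psmd9* and *Psmd10*) and 5 activators (*Psme1*, *Psme2*, *Psme2b*, *Psme3* and *Psme4*). The remaining gene, *Psmc3ip*, shares the prefix but encodes a recombination factor that is no proteasome subunit. *Psma8*, the alpha subunit of the testis, gave 140 UMIs over all classes and *Psmb11* gave 1 UMI, and neither passed the filter on low counts in any test. In the strain tests the other 43 genes passed it in the monocyte, immature neutrophil, pro-B and pre-B and mature B classes. As few as 3 did in basophils or mast cells, 7 in nonclassical monocytes and 18 in T cells. The comparison of each class with the others, made in 1 fit, tested the 43 genes in every class.

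Promoter sequence was read for the genes whose expression the results turn on, since the inducible and constitutive subunits are regulated differently. The windows run from 250 bases before to 50 bases after the RefSeq start (GRCm38.p6), and capitals mark 1 match in each window to 1 of 6 patterns searched on both strands. *Psmb8* (chr17:34197945-34198244, plus strand) held a match to TTCNNNGAA, the pattern of gamma-activated sites. *Psme1* (chr14:55578244-55578543, plus strand) held a match to the pattern of interferon-stimulated response elements, a pair of GAAA with any 2 bases between, on the opposite strand. *Psmb9* (chr17:34187281-34187580, minus strand) held a match to TTTGGCGC, an E2F pattern, also on the opposite strand. *Psmb5* (chr14:54617946-54618245, minus strand) held a match to TGACNNNGC, the core of antioxidant response elements. The other patterns were CCAAT, the CCAAT box, and GCGGGAA, a second E2F pattern, and the matches to CCAAT in *Psmb9* and to GCGGGAA in *Psme1*, both on the opposite strand, were left in lower case.
Psmb8 promoter: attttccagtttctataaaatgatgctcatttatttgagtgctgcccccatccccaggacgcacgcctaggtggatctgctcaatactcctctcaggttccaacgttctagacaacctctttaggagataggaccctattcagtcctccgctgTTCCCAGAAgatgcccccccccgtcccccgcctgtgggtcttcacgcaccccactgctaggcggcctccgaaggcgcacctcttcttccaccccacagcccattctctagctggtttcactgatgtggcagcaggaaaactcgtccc
Psme1 promoter: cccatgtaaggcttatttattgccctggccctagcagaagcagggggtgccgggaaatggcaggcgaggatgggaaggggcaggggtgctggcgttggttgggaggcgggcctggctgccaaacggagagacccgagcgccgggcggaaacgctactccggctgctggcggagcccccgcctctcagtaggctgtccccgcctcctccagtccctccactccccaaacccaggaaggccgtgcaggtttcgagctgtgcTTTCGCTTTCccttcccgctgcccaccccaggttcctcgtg
Psmb9 promoter: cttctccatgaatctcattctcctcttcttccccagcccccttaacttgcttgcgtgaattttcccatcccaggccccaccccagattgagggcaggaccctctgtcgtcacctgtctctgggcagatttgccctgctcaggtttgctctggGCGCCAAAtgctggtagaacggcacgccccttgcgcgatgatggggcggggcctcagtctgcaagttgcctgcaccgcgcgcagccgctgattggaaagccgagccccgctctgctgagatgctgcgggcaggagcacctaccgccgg
Psmb5 promoter: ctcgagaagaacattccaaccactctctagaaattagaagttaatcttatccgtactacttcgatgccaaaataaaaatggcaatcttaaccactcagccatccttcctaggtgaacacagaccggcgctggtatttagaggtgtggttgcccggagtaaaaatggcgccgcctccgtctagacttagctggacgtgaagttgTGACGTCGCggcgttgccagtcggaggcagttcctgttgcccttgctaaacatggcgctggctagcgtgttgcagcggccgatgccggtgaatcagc
Of the 45 genes, 38 had an entry, giving 41 promoters. The TTCNNNGAA pattern was found in 2 of these 41 promoters and in 8.298% of all 32851 promoters of the same length, the pair of GAAA in 4 against 3.443%, TGACNNNGC in 6 against 12.39%, TTTGGCGC in 1 against 0.5144%, GCGGGAA in 5 against 4.6% and CCAAT in 15 against 37.41%. The windows of *Psmb10*, *Psme2* and *Psme2b*, not shown, held no match to any of the 6. A match describes these letters only.

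A second pair of sequences matters for how the counts are read. *Psme2* (chr14:55587441-55591113, minus strand) and *Psme2b* (chr11:48945354-48946190, minus strand, a single exon) both encode a PA28 beta chain, and their coding sequences of 720 bases each differ at 5 positions, an identity of 99.3%. The stretch of coding positions 454 to 543 is shown because it carries 3 of the 5 differences, in capitals.
Psme2: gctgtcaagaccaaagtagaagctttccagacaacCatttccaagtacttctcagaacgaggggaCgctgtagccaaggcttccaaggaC
Psme2b: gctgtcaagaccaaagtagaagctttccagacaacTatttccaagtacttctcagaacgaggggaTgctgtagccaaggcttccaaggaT
Over the last 500 bases of the transcript, 55.2% of the 50-base words of *Psme2* also occurred in *Psme2b*, so part of their reads cannot be told apart, and the split between the pair is uncertain. *Psmd1* shared 56.8% of such words with *Gm21972* and *Psmb3* shared 35.9% with *Gm4950*, and their levels are uncertain for the same reason. Some members also shared words with genes outside the feature list, among them *Psmb5* with *Gm3375* (51.2%) and *Psma5* with *Gm12989* (43.7%). The effect of such copies on the counts was not tested. All libraries were aligned to mm10, and the effect of sequence differences between the strains on the counts was not tested.

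The catalytic subunits were compared first across cell classes. The inducible share, meaning the UMIs of *Psmb8*, *Psmb9* and *Psmb10* as a percent of those of all 6 catalytic genes, was lowest in erythroid cells at 12.1% ± 1.8 (SD, n = 9 mice), and the next class, basophils or mast cells, stood at 49.1% ± 12.6 (n = 7). The 9 erythroid values ran from 8.73 to 14.5%, and no mouse of any other class fell below 29.2%. Immature neutrophils, pro-B and pre-B cells and promyelocytes followed at 50.2% ± 1.7, 50.3% ± 2.2 and 53.6% ± 1.3. Monocytes reached 59.3% ± 1.8, mature B cells 64.0% ± 2.7 and NK cells 66.6% ± 4.0. Plasmacytoid dendritic cells reached 69.7% ± 5.1, T cells 72.9% ± 4.4 and conventional dendritic cells 77.5% ± 5.6 (n = 4). Neighbours in this order mostly lay within each other's spread.

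**Figure D1:**
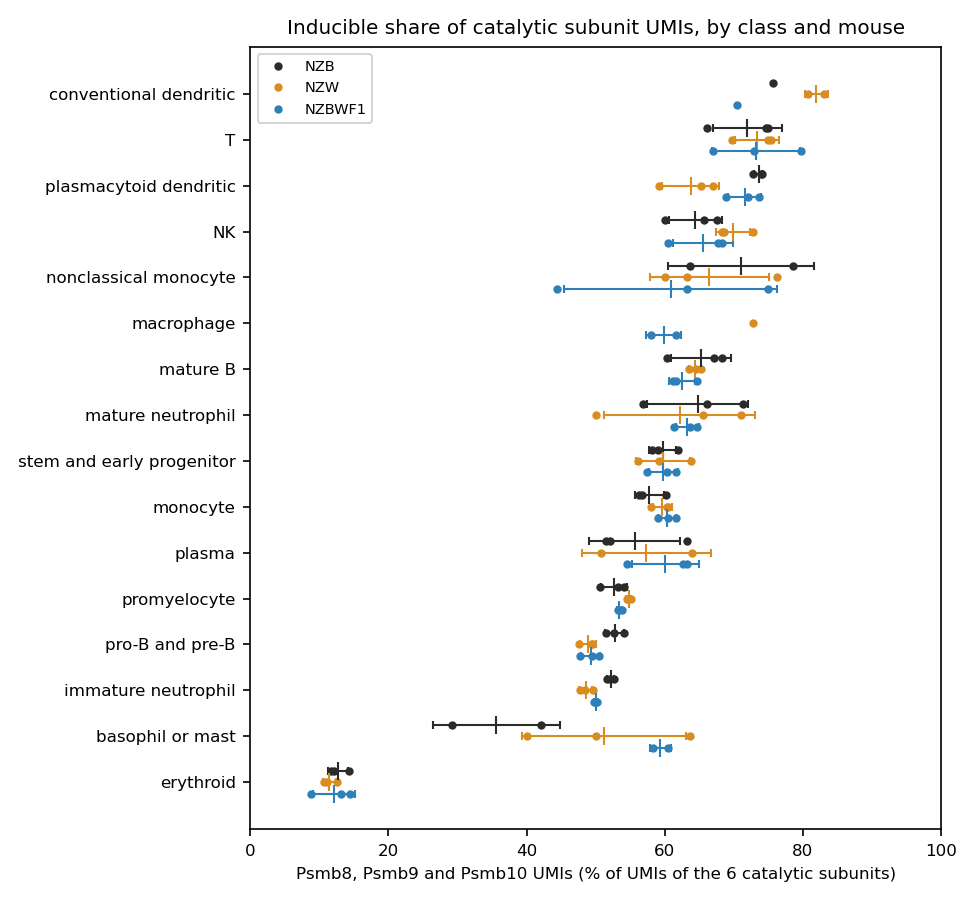
Inducible share of catalytic subunit UMIs (percent, linear axis) in each cell class, 1 point per mouse coloured by strain. Erythroid values lie between 8.73 and 14.5%, apart from every other class, and within plasmacytoid dendritic cells the 3 NZW mice lie below the NZB and NZBWF1 mice.

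The erythroid pattern came from all 3 inducible genes. *Psmb8*, the inducible partner of *Psmb5*, had a level of 23.2 to 55.5 CPM over the 9 mice in erythroid cells (median 33.1), against 480 to 732 CPM in T cells (median 616) and 389 to 650 CPM in promyelocytes (median 456). *Psmb9*, the partner of *Psmb6*, had a level of 28.4 ± 5.2 CPM in erythroid cells and 288 ± 45.3 CPM in T cells. No erythroid value of either gene overlapped a T cell value. Compared to the mean of the other classes, edgeR's quasi-likelihood test gave log2 differences in erythroid cells of −3.44 (SE 0.10, adjusted p = 6.72e-81) for *Psmb8*, −2.90 (SE 0.11, adjusted p = 9.67e-66) for *Psmb9* and −1.33 (SE 0.09, adjusted p = 9.5e-32) for *Psmb10*, while *Psmb5*, the constitutive partner of *Psmb8*, was higher by 0.75 (SE 0.06, adjusted p = 1.13e-25). *Psmb10* made up 21.5% of the sum with its partner *Psmb7* in erythroid cells, against 9.3% for *Psmb8* with *Psmb5* and 8.9% for *Psmb9* with *Psmb6*. Free RNA, estimated from barcodes under 100 UMIs, would supply 3.88% of the erythroid *Psmb8* level and 3.12% of the *Psmb9* level.

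In erythroid cells the remaining subunits moved the other way. Of the 43 genes, 37 were higher and 6 lower than in the other classes, where 42% of all 8186 genes tested were higher and 28.3% lower (70.3% called). *Psmd7*, a subunit of the 19S lid, had a level of 410 ± 20.4 CPM in erythroid cells and 120 ± 21.7 CPM in monocytes, a log2 difference from the other classes of 1.89. Every gene of the alpha ring (7 of 7 tested), the non-catalytic beta set (4 of 4), the ATPases (6 of 6), the non-ATPase subunits (11 of 11) and the assembly chaperones (3 of 3) was higher, with *Psmd9*, a chaperone, at 2.12 and *Psmd5* at 1.79. The 6 lower genes were the 3 inducible subunits and the PA28 genes *Psme1* (−0.81), *Psme2* (−0.84) and *Psme2b* (−3.03), whereas *Psme3*, which encodes the nuclear PA28 gamma, was higher by 1.41. The median log2 difference of the 43 genes lay 0.82 above that of all genes and 0.81 above it with DESeq2's size factors. The erythroid class was 71.1 to 87.7% dividing cells by its marker score.

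Partners and class I genes from lists outside the naming rule were read beside this. Of 25 proteasome partners (assembly factors, ubiquitin shuttles and regulators), 18 were higher and 5 lower in erythroid cells, with a median of 0.69, against 0.01 for all genes. Of 12 genes of class I peptide loading, 10 were lower, among them *Tap1* and *Tap2*, which carry peptides into the endoplasmic reticulum, and none was higher, with a median of −1.72.

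Plasmacytoid dendritic cells, T cells and NK cells showed a different arrangement. In plasmacytoid dendritic cells 6 of 43 genes were higher and 7 lower, against 34.7% and 11.1% of all genes (45.8% called), and these were the 3 inducible subunits (*Psmb8* 0.85, *Psmb9* 0.67 and *Psmb10* 0.66) and the PA28 genes *Psme2b* (1.94), *Psme2* (0.96) and *Psme1* (0.82). The 7 lower genes included the ATPases *Psmc6* (−0.56) and *Psmc1* (−0.45) and the scaffold subunit *Psmd1* (−0.53). In T cells 6 genes were higher, against 19.3% of all genes, namely *Psme2b* (1.43, but −0.29 and not called in cells with at least 2000 UMIs), *Psme2* (0.84), *Psmb8* (0.76), *Psmb10* (0.62), *Psme1* (0.60) and *Psmb9* (0.49), while 8 were lower, against 10.6% (29.9% called), among them *Psmd8* (−0.79) and *Psmc2* (−0.73). In NK cells 7 were higher, against 22.9%, led by *Psmb10* at 0.86, and *Psma7* alone was lower at −0.45, against 8.81% (31.7% called). Class I peptide loading genes were higher in these classes, 9 of 12 in plasmacytoid dendritic cells, 9 of 12 in T cells and 6 of 12 in NK cells.

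The granulocyte lineage differed between its stages. In promyelocytes 38 of 43 genes were higher and 2 lower, against 42.6% and 21.5% of all genes (64.1% called), led after *Psmc3ip* (3.21) by *Psma5* (1.15), *Psmb2* (1.13) and *Psmb5* (1.10). In mature neutrophils 1 was higher and 25 were lower, against 30.9% and 21.4% (52.4% called), with *Psmd7* at −1.22, *Psmd9* at −1.04 and *Psma5* at −0.98, and the gene called higher after TMM scaling was *Psmb9* at 0.38, whose level of 160 ± 58.4 CPM lay below its mean level in most classes. The sum over the 45 genes was 7938 ± 997 CPM in promyelocytes, 3115 ± 120 CPM in immature neutrophils and 2890 ± 482 CPM in mature neutrophils (SD, n = 9 mice), and no promyelocyte value overlapped a neutrophil value. *Psmb10* stood out within immature neutrophils at 24.7 ± 5.4 CPM, against 138 ± 15.1 CPM in promyelocytes, with a log2 difference from the other classes of −1.21 (SE 0.09, adjusted p = 1.55e-28). *Psmb9* was called there at 0.53 after TMM scaling, although its level of 125 ± 15.0 CPM lay below its mean level in the classes other than plasma and erythroid cells, and no direction is given for it.

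How many genes were called in a class depended on the scaling. For the alternatives of the class comparisons the share of all genes called is not given. Their counts alone do not show a change particular to these genes. With DESeq2's size factors in place of the trimmed mean of M-values (TMM), the median of all genes moved from 0.17 to −0.32 in promyelocytes and from 0.24 to −0.06 in immature neutrophils. Immature neutrophils, where 46.4% of all genes were higher and 21.5% lower (67.9% called), then went from 24 higher and 7 lower to 9 higher and 18 lower, so no direction is given for that class as a whole. Promyelocytes went to 22 higher and 7 lower, and the median of the genes relative to all genes stayed at 0.53, from 0.55. Mature neutrophils went to 1 higher and 19 lower, and cells with at least 2000 UMIs left none higher and 3 lower there.

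Plasma cells and monocytes also had more genes called higher than lower after TMM scaling, which for plasma cells did not hold as a high level in CPM. In plasma cells 29 of 43 genes were higher and none lower, against 22.5% and 16.3% of all genes (38.7% called), led by the ATPase *Psmc2* (1.17) and *Psmb6* (1.10), and the median lay 0.63 above that of all genes. The summed level in CPM was the lowest of the classes there at 2676 ± 535 (n = 8), a place that it lost when scaled to TMM effective library sizes. In monocytes 25 were higher and 1 lower, against 41.6% and 10.5% (52.1% called), and *Psma7*, an alpha ring gene, led at 1.20 with a level of 867 ± 86.6 CPM against 601 ± 73.1 CPM in promyelocytes. The lower gene was *Psmd9* at −0.35, which stood at 0.13 without NZBWF1 replicate 3. The monocyte count fell to 12 higher and 3 lower with DESeq2's size factors.

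Among the remaining classes, pro-B and pre-B cells had 32 higher and 6 lower genes, against 40.6% and 19.7% of all genes (60.2% called), with *Psmc1* (1.09) and *Psmd7* (0.79) higher and *Psme2* (−0.72) and *Psme1* (−0.58) lower. Mature B cells had 6 higher and 7 lower, against 35.4% and 12.7% (48.1% called), with *Psme4*, the nuclear activator PA200, at 0.56 and *Psmb10* at 0.55. Nonclassical monocytes had none higher and 19 lower, against 13.1% and 14.5% (27.6% called), with the deubiquitinase *Psmd14* at −2.69, but 3 lower with DESeq2's size factors. Stem and early progenitor cells had 10 higher and 3 lower, against 28.2% and 11.5% (39.7% called), with *Psmd7* at 0.99. Conventional dendritic cells had 2 higher, *Psmb8* (1.09) and *Psme1* (0.82), and 2 lower, *Psmd3* (−2.47) and *Psmb6* (−0.90), against 6.95% and 2.49% (9.44% called). Macrophages, which rest on 3 mice with no NZB mouse among them, had 7 lower and none higher, led by *Psmd11* (−1.62), against 4.2% and 11.1% (15.3% called). Basophils or mast cells had 8 lower and none higher, led by *Psme3* (−2.11), against 9.03% and 6.3% (15.3% called).

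**Figure D2:**
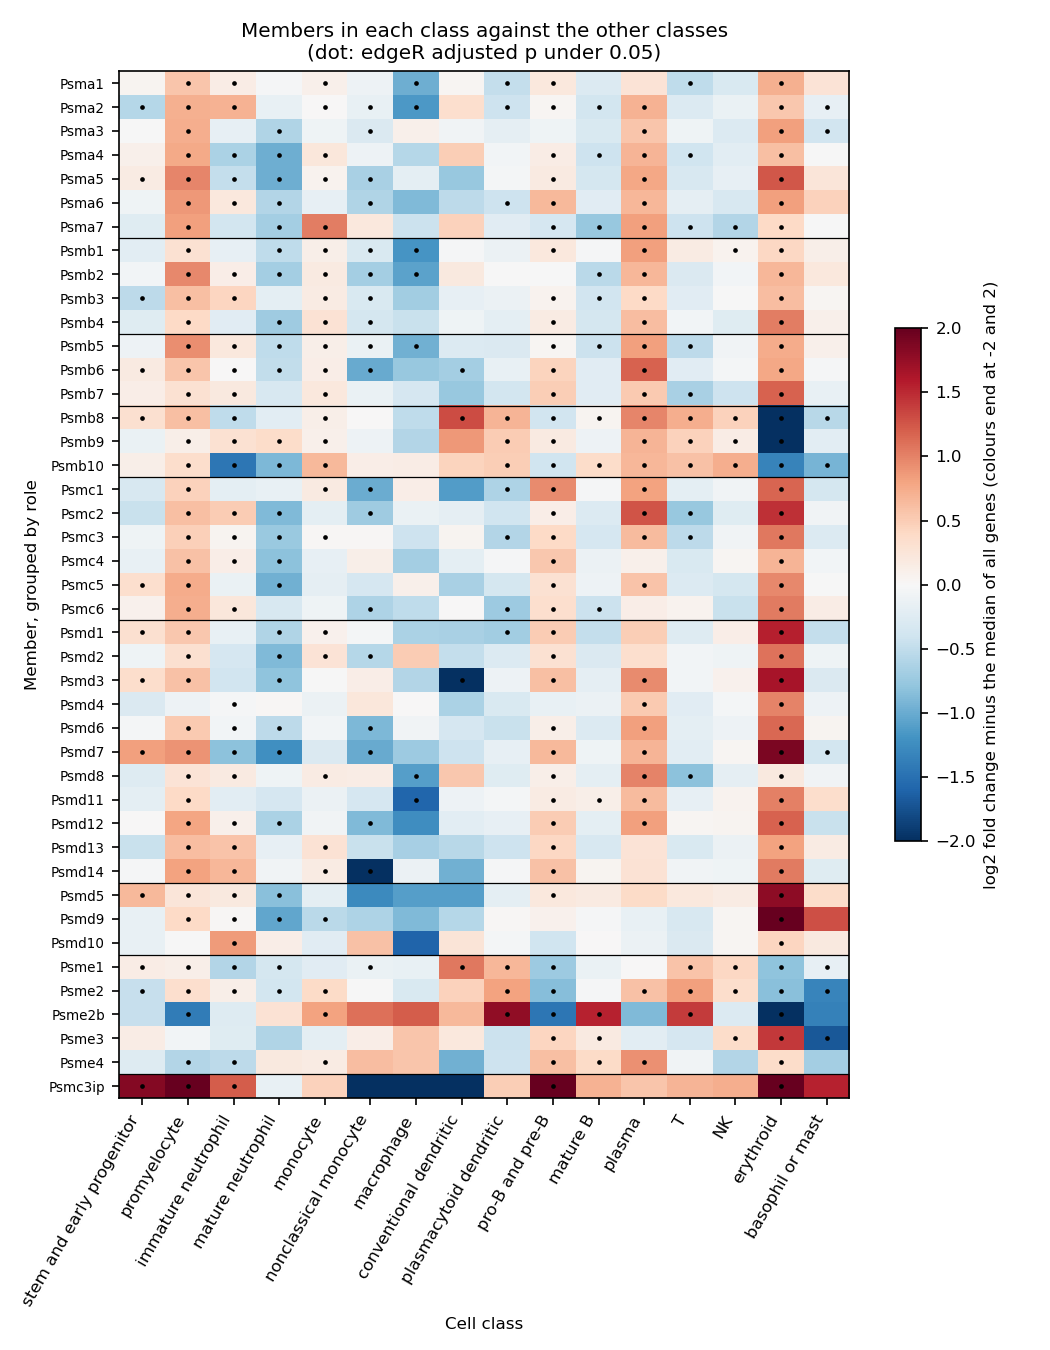
Log2 difference of each gene in a class from the mean of the other classes, minus the median of all genes in that class, for the genes tested (rows, grouped by role) in the 16 classes (columns); a dot marks an edgeR adjusted p under 0.05 for the difference before that subtraction. The inducible, *Psme1*, *Psme2* and *Psme2b* rows are low in erythroid cells and high in plasmacytoid dendritic and T cells.

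The parental strains were then compared class by class, which asks where the 2 parents of the lupus-prone hybrid differ. Over 14 classes with enough mice, 50 of 450 tests of these genes were called, and all 50 were higher in NZB than in NZW, against 8.66% of all 66221 gene tests called in either direction. They covered 30 genes and 7 classes, and 38 of the 50 fell in monocytes and promyelocytes. The strain comparisons share mice, since each uses 2 of the same 3 groups, and their values are therefore given side by side.

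In NZB monocytes 28 of 43 genes were higher than in NZW and none was lower, against 11.6% of all genes higher and 10.1% lower (21.7% called). The summed level of the 45 genes was 8886, 8317 and 8862 CPM in the 3 NZB mice, 7110, 7005 and 6682 CPM in the NZW mice and 8006, 7257 and 7283 CPM in the NZBWF1 mice. The 3 NZB mice lay above all others. The median log2 difference between NZB and NZW was 0.37 over the 43 genes and −0.01 over all genes tested.

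The calls in monocytes spread over the parts of the particle. They took in 6 of 7 alpha ring genes, 3 of 4 non-catalytic beta genes, all 3 constitutive catalytic genes, 2 of 3 inducible genes, all 6 ATPases, 6 of 11 non-ATPase genes, none of 3 chaperones and 2 of 5 activators. *Psmc2*, an ATPase of the base, had levels of 103, 89.7 and 114 CPM in NZB, 66.4, 57.1 and 54.2 CPM in NZW and 54.2, 60.7 and 78.9 CPM in NZBWF1. NZB did not overlap either other strain, and the log2 difference between NZB and NZW was 0.79 (SE 0.15, edgeR adjusted p = 0.000124). *Psmb3*, a beta ring subunit, had levels of 409, 401 and 423 CPM in NZB, 325, 281 and 260.0 CPM in NZW and 376, 302 and 327 CPM in NZBWF1, with a log2 difference of 0.52 (SE 0.11, adjusted p = 0.000339). *Psma5* of the alpha ring differed by 0.56, *Psmd8* of the cap by 0.52 and *Psmb2* by 0.47. Among the 28 called genes, the NZB and NZW mice overlapped for *Psmc5* and *Psmd7*.

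The NZB monocyte class also differed in its makeup. Dividing cells made up 31.4, 59.4 and 42.1% of the class in NZB, 23.4 to 24.3% in NZW and 18.6 to 20.7% in NZBWF1. Summed promyelocyte markers stood at 1115 to 1716 CPM in NZB, 633 to 813 CPM in NZW and 577 to 664 CPM in NZBWF1, the nonclassical monocyte markers at 235 to 260 CPM in NZB and 362 to 515 CPM in NZW, and the median depth per cell at 2763 to 3380 UMIs in NZB and 1705 to 2273 UMIs in NZW. With dividing cells left out, 21 genes were called (17.9% of all genes), with a median of 0.45. The sums then became 8853, 8719 and 8862 CPM in NZB against 6821, 6673 and 6513 CPM in NZW. This setting dropped cells with a dividing score of at least 0.3 and kept those from 0.1 to 0.3, which were not counted as non-dividing. The share of such cells was not equalized between strains, and their part in the result was not tested. The part of the immature markers and of depth in the result was not tested, apart from restriction to cells with at least 2000 UMIs, which left 9 calls and a median of 0.26, with 12.3% of all genes called in place of 21.7%. DESeq2 called 15 (12.9% of all genes), and leaving out NZW replicate 3, NZB replicate 3 or NZW replicate 2 left 14, 17 or 18 (15.4, 16.9 and 16.2% of all genes).

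**Figure D3:**
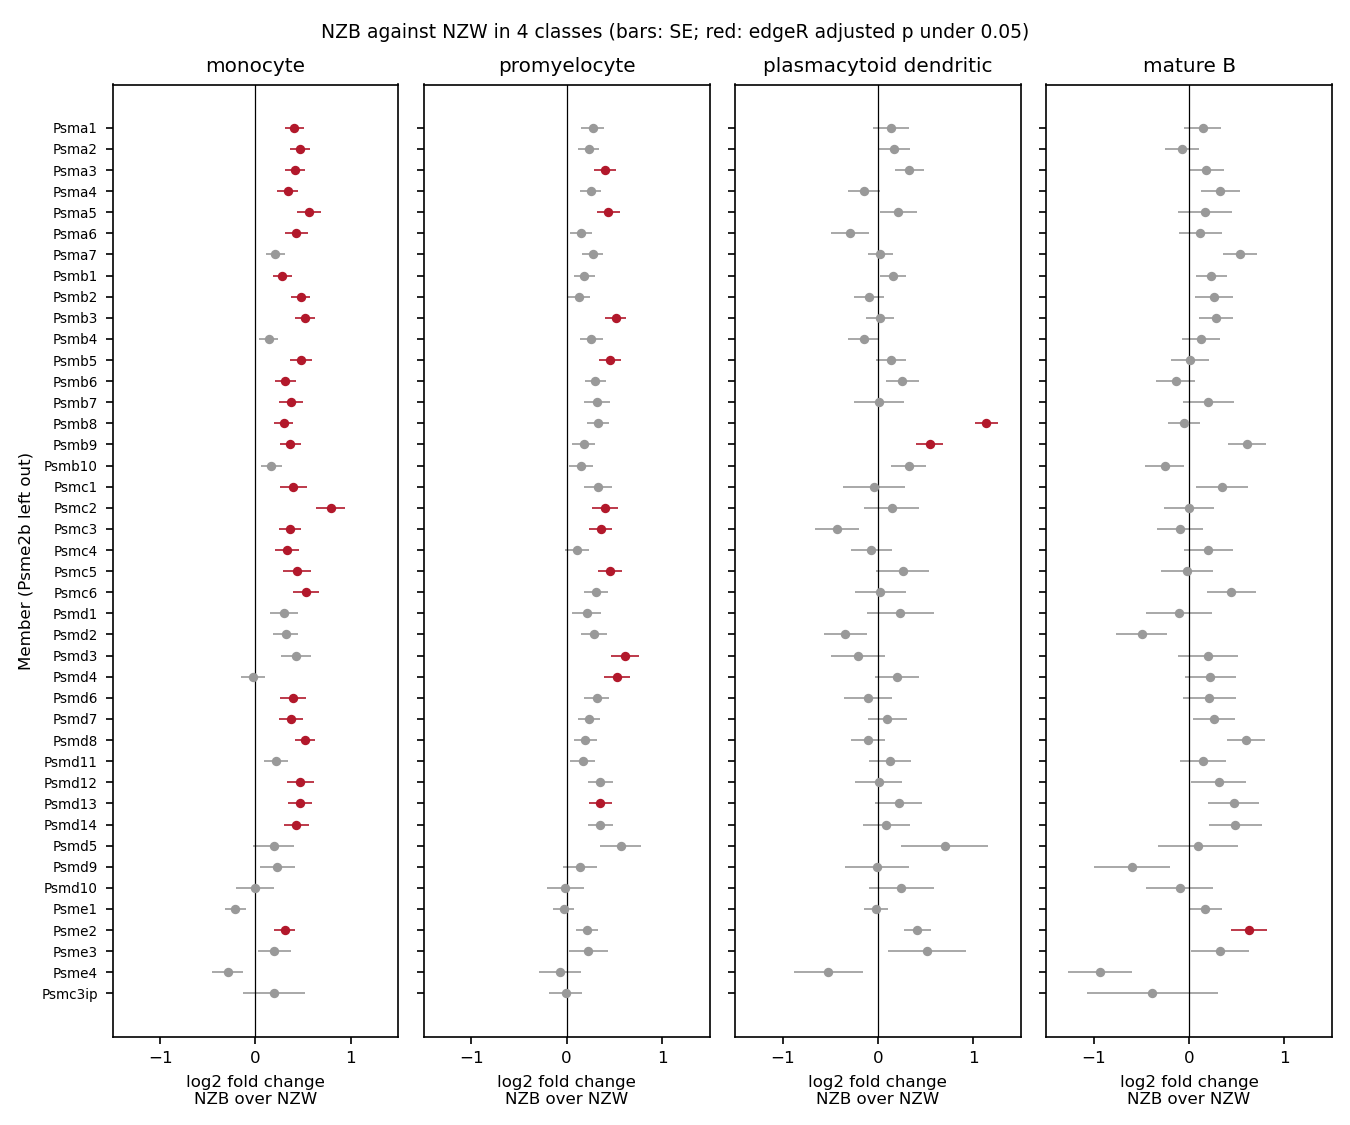
Log2 difference between NZB and NZW for each gene (rows, grouped by role, *Psme2b* left out for scale) in monocytes, promyelocytes, plasmacytoid dendritic cells and mature B cells. Symbols are red where the edgeR adjusted p is under 0.05 and grey otherwise, and the other strain-tested classes are not shown. The called values plotted lie above 0 and, among the classes shown, gather in monocytes and promyelocytes, with *Psmb8* of plasmacytoid dendritic cells at 1.14.

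Promyelocytes gave the next largest count. In NZB, 10 of 42 genes were higher and none lower, against 4.91% and 5.85% of all genes (10.8% called), with a median of 0.27 over the 42 genes and −0.0044 over all genes. The summed level was 9445, 8676 and 8991 CPM in NZB, 7448, 6903 and 6364 CPM in NZW and 7739, 7616 and 8256 CPM in NZBWF1, again without overlap of NZB with the others. *Psmb3* had levels of 458, 429 and 408 CPM in NZB, 304, 294 and 245 CPM in NZW and 372, 365 and 367 CPM in NZBWF1, and differed between NZB and NZW by 0.51 (SE 0.11, edgeR adjusted p = 0.000583). The 3 strains did not overlap for this gene. *Psmd3*, a cap subunit, had levels of 104, 96.1 and 94.1 CPM in NZB and 69.1, 59.8 and 50.3 CPM in NZW, a log2 difference of 0.61, and *Psmd4*, a ubiquitin receptor, differed by 0.53. Dividing cells made up 32.4 to 40.2% of the class in NZB and 18.1 to 26.9% in NZW, and 7 genes were called without them (7.93% of all genes). Cells with a dividing score from 0.1 to 0.3 stayed in here too. Without NZW replicate 2 (7.71%) or without NZW replicate 3 (6.15%), 5 genes were called.

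*Psmb3* and *Psma5* were called between the parents in monocytes, promyelocytes and erythroid cells. In erythroid cells the levels of *Psmb3* were 435, 434 and 461 CPM in NZB, 312, 328 and 345 CPM in NZW and 391, 361 and 417 CPM in NZBWF1, a log2 difference of 0.45 (SE 0.09, edgeR adjusted p = 0.00153) where 3.75% of all genes were higher and 4.87% lower. Over 19 alternatives its adjusted p stayed under 0.02 in each of the 3 classes. The call of *Psma5* in erythroid cells, at 0.33, was lost in 11 of 19 alternatives.

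*Psmb8* gave the largest called difference between NZB and NZW apart from those of *Psme2b*, and it lay in plasmacytoid dendritic cells, which specialize in type I interferon. *Psmb8* (chr17:34197721-34201454, plus strand) lies with *Psmb9* (chr17:34181987-34187764, minus strand) in the MHC region. Its level was 807, 900.4 and 880 CPM in NZB, 452, 391 and 365 CPM in NZW and 700.4, 743 and 702 CPM in NZBWF1. The 3 strains did not overlap, and NZW was lowest. The log2 difference between NZB and NZW was 1.14 (SE 0.12, edgeR adjusted p = 1.12e-11) and that between NZBWF1 and NZW 0.85 (SE 0.13, adjusted p = 8.79e-07), while NZBWF1 and NZB differed by −0.29 (SE 0.11, adjusted p = 0.194), short of the threshold. Over the 19 alternatives the first ran from 1.04 to 1.26, with the largest adjusted p at 0.00963, and the second was lost in cells with at least 2000 UMIs (adjusted p = 0.0864). In this class 8.08% of all genes were called between NZB and NZW and 1.96% between NZBWF1 and NZW, and 3 and 2 of 42 proteasome genes.

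The constitutive partner *Psmb5* had levels of 235, 246 and 226 CPM in NZB, 221, 223 and 218 CPM in NZW and 188, 213 and 233 CPM in NZBWF1, with a log2 difference between the parents of 0.14 (SE 0.16, adjusted p = 0.751). The share of *Psmb8* in the sum with *Psmb5* thus stood at 78.5% in NZB, 64.5% in NZW and 77.2% in NZBWF1, and the inducible share over all 6 genes at 73.6% ± 0.7, 63.8% ± 4.1 and 71.6% ± 2.4 (SD, n = 3 mice each). *Psmb9* had levels of 427, 409 and 397 CPM in NZB, 361, 264 and 243 CPM in NZW and 284, 265 and 287 CPM in NZBWF1. It was higher in NZB than in NZW by 0.54 (SE 0.14, edgeR adjusted p = 0.0069) and lower in NZBWF1 than in NZB by 0.58 (SE 0.13, adjusted p = 0.0033). NZBWF1 thus lay between the parents for *Psmb8*, and within the range of NZW for *Psmb9*. The parental *Psmb9* call was lost with DESeq2, in deeper cells, and without NZW replicate 2 or NZW replicate 3 (adjusted p up to 0.888), and the call between NZBWF1 and NZB was lost in deeper cells. *Psmb10*, which lies outside the MHC region (chr8:105935735-105938444, minus strand), differed by 0.32 (SE 0.18, adjusted p = 0.359).

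The plasmacytoid class differed between strains in other genes as well. Its own summed markers stood at 11748 to 12259 CPM in NZB, 7588 to 7994 CPM in NZW and 9190 to 9506 CPM in NZBWF1, the conventional dendritic markers at 5978 to 6215, 3044 to 3431 and 5408 to 6477 CPM, and the dividing markers at 545 to 791, 1184 to 2472 and 360.4 to 983 CPM. Its markers *Siglech* and *Klk1* were left out of the gate because they differed between strains. With all markers in the gate, *Siglech* averaged 2376 CPM in NZB, 753 CPM in NZW and 1521 CPM in NZBWF1. *Klk1* averaged 3038, 101 and 1050 CPM. Their part in the summed markers was not separated, so the sums do not show a strain difference in the other markers. Summed stem and early progenitor markers stood at 1308 to 2107 CPM in NZB, 350.0 to 410.3 CPM in NZW and 511 to 629 CPM in NZBWF1. Of that list, *Kit* and *Cd34* stood at only 0.34 and 1.0 CPM over all cells of the class. The sum thus came from other genes of the list and does not show progenitor cells in the class. Without dividing cells *Psmb8* differed between the parents by 1.13. The part of the other markers in the result was not tested. Of 12 class I peptide loading genes, 5 were higher in NZB than in NZW (among them *H2-D1*, *H2-K1*, *B2m* and *Pdia3*) and none lower, and 3 were higher in NZBWF1 than in NZW (*H2-D1*, *B2m* and *H2-K1*).

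Inducible genes were called between the parents in other classes too. In immature neutrophils *Psmb9* had levels of 132, 143 and 149 CPM in NZB, 115, 105 and 110.2 CPM in NZW and 132, 119 and 117 CPM in NZBWF1, and differed between the parents by 0.52 (SE 0.11, edgeR adjusted p = 0.00277), a call that no alternative lost. *Psmb8* differed there by 0.40 (SE 0.11, adjusted p = 0.0198) and was lost in 3 of 19 alternatives, and in this class 12.4% of all genes were called. In erythroid cells *Psmb8* had levels of 33.1, 40.3 and 55.5 CPM in NZB and 32.8, 23.2 and 25.5 CPM in NZW, a log2 difference of 0.77 (SE 0.21, adjusted p = 0.0257) that was lost in 8 of 19 alternatives. *Psmb10* was called in no strain comparison in any class tested. Between NZB and NZW, edgeR called none of these genes in stem and early progenitor cells (2.8% of all genes called), mature neutrophils (3.69%), nonclassical monocytes (2.19%), plasma cells (1.58%), T cells (2.28%), NK cells (2.69%) and basophils or mast cells (2.05%), where 2, 1, 0, 1, 2, 2 and 0 had an unadjusted p under 0.05, and *Psme2b* alone in pro-B and pre-B cells (1.71%).

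Whether the strain difference of a gene depended on the class was tested in 1 fit over 11 classes with all 9 mice. Of 43 proteasome genes, 5 were called, a share near the 10.8% of all 8708 genes. *Psmb8* had the smallest adjusted p, 2.6e-07, with log2 differences between NZB and NZW from −0.12 (SE 0.19) in NK cells and −0.05 in mature B cells to 1.14 in plasmacytoid dendritic cells, and it was called in each of 16 alternatives. For *Psma3*, *Psmc3*, *Psmc2* and *Psma2* the adjusted p was 0.00665, 0.0188, 0.0325 and 0.0371.

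*Psme2b* gave the largest strain differences of the 45 genes. Its level in monocytes was 51.4, 35.1 and 44.3 CPM in NZB, 0.8, 5.2 and 1.2 CPM in NZW and 50.7, 38.0 and 30.8 CPM in NZBWF1, and in mature B cells 77.6, 78.2 and 82.6 CPM in NZB, 0, 5.4 and 1.7 CPM in NZW and 87.6, 43.3 and 52.2 CPM in NZBWF1. In plasmacytoid dendritic cells it was 105, 81.9 and 76.2 CPM in NZB, 9.6, 5.1 and 0 CPM in NZW and 122, 54.6 and 50.1 CPM in NZBWF1. NZW stood apart from both other strains in each of these classes. The edgeR adjusted p between NZB and NZW was 8.23e-11 in monocytes, 8.54e-10 in mature B cells (where 3.8% of all genes were called) and 9.14e-09 in plasmacytoid dendritic cells, and the call also stood in immature neutrophils and in pro-B and pre-B cells, the last of which was lost without NZB replicate 3 (adjusted p = 0.244). In pro-B and pre-B cells *Psme2b* could not be tested in cells with at least 2000 UMIs, with the stricter gate or without dividing cells, and in mature B and plasmacytoid dendritic cells it could not be tested in cells with at least 2000 UMIs.

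Because the NZW counts were small, the size of the difference is given as a ratio of UMI rates with an exact 95% interval that covers counting error only. In monocytes 133 UMIs in NZB stood against 11 in NZW and 128 in NZBWF1, a ratio of NZB to NZW of 16.4 (8.90 to 33.7). In mature B cells 40 stood against 4 and 97, a ratio of 38.3 (13.9 to 147), and in plasmacytoid dendritic cells 114 against 3 and 70, a ratio of 17.7 (5.91 to 87.2). In immature neutrophils 122 stood against 17 and 78, a ratio of 7.86 (4.71 to 13.9). NZW had 0 UMIs in T cells and NK cells, where NZB had 15 and 13, at least 4.82-fold and 3.96-fold higher against a floor of 3 counts over the group, a bound that leaves out the counting error of NZB, and the lower limits of the exact intervals were 3.46 and 2.79. In erythroid cells the counts were 7, 6 and 14, a ratio of 1.75 whose interval of 0.50 to 6.30 includes 1. In the free RNA of the same libraries *Psme2b* had 13 to 25 UMIs in NZB, 1 to 2 in NZW and 6 to 19 in NZBWF1, while *Psme2* had 71 to 170 UMIs over all 9 libraries.

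In NZBWF1, *Psme2b* was called against NZW in 5 classes, which together with *Psmb8* of plasmacytoid dendritic cells made up all 6 calls of 450 between NZBWF1 and NZW (1.08% of all gene tests were called). The call in immature neutrophils was lost in cells with at least 2000 UMIs (adjusted p = 0.0586). The rate in NZBWF1 relative to NZB was 0.900 (0.701 to 1.16) in monocytes, 0.733 (0.537 to 0.996) in plasmacytoid dendritic cells and 0.625 (0.465 to 0.838) in immature neutrophils. These intervals pool the mice of a strain and leave out the spread between mice. With the mouse as unit, edgeR called *Psme2b* between NZBWF1 and NZB in no class. Against the mean of the parents' logs, *Psme2b* was the gene called, in monocytes (1.82), mature B cells (2.08) and plasmacytoid dendritic cells (1.61), 3 of 450 tests, with 0.618% of all gene tests called. The monocyte call was lost in deeper cells, and that in plasmacytoid dendritic cells was lost with DESeq2 and without NZBWF1 replicate 1, NZW replicate 2 or NZW replicate 3. For the call in mature B cells DESeq2 gave no adjusted p, and the gene could not be tested in deeper cells. For a gene near 0 in NZW the mean of the parents' logs lies well below the log of their linear mean. A hybrid at the linear mean would therefore already stand above it, and these calls do not measure an excess over the linear mean. On the linear scale the means of the parents were 23.0, 40.9 and 46.3 CPM and the NZBWF1 means 39.8, 61.1 and 75.5 CPM in these classes.

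*Psme2*, the near-identical partner, was called between the parents in mature B cells and in monocytes (0.31). In mature B cells its levels were 253, 269 and 294 CPM in NZB, 172, 178 and 217 CPM in NZW and 187, 254 and 236 CPM in NZBWF1, a log2 difference between the parents of 0.63 (SE 0.19, edgeR adjusted p = 0.0414) that was lost in 8 of 19 alternatives. In plasmacytoid dendritic cells it differed by 0.41 (SE 0.14, adjusted p = 0.0521), and *Psme1*, which pairs with it in the PA28 ring, by −0.02 (SE 0.13). With *Psme2* and *Psme2b* counted as 1 gene, 46 calls remained between NZB and NZW, 1 between NZBWF1 and NZW and none against the mean of the parents' logs.

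**Figure D4:**
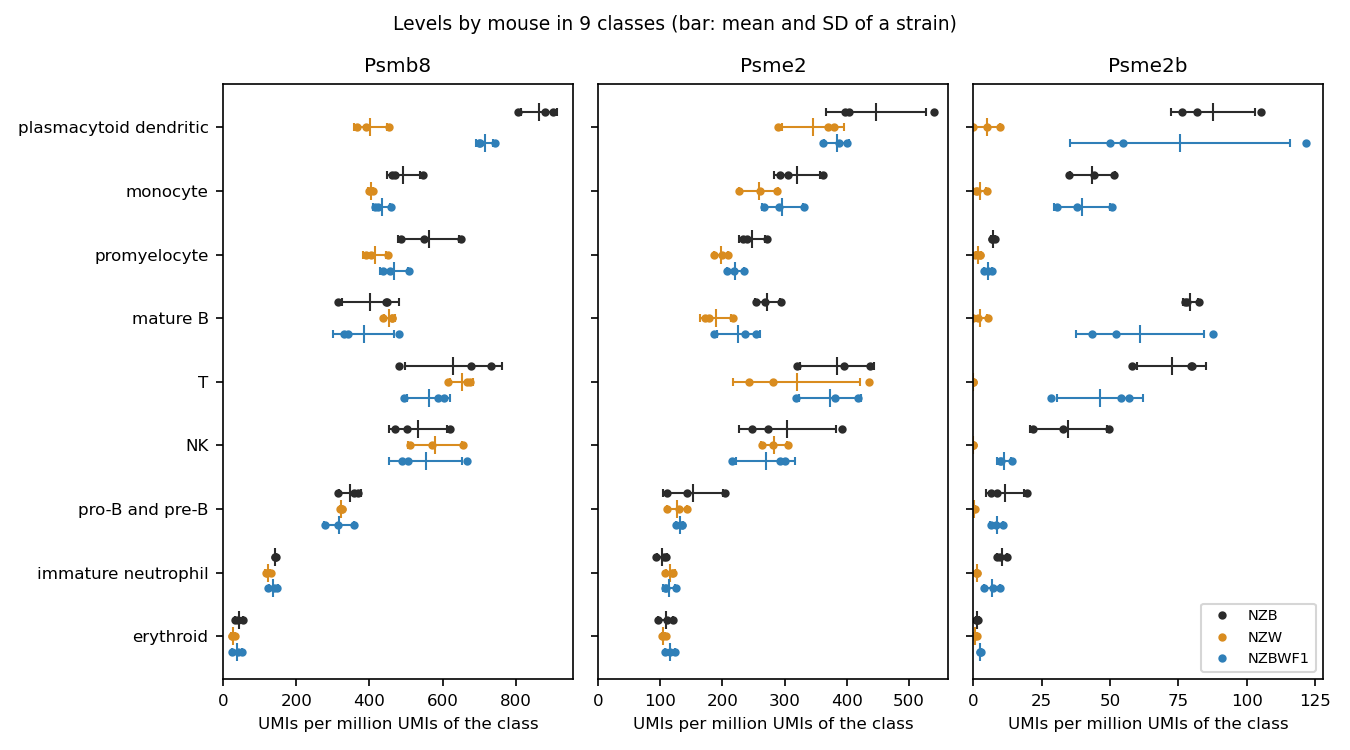
Levels (CPM) of *Psmb8*, *Psme2* and *Psme2b* in each mouse for 9 classes, coloured by strain. NZW mice lie at 365 to 452 CPM for *Psmb8* in plasmacytoid dendritic cells, below the other strains, and near 0 for *Psme2b*, while the strains overlap for *Psme2* in most classes.

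Compared to NZB, the NZBWF1 hybrid had 19 of 450 tests called, all lower in NZBWF1, against 3.75% of all gene tests called. In monocytes 17 of 43 genes were lower and none higher, against 7.78% and 6.92% of all genes (14.7% called), with a median of −0.27 over the 43 genes and 0.01 over all genes. *Psmc2* was lower by 0.64 (SE 0.15, edgeR adjusted p = 0.003) and *Psma1* by 0.46 (SE 0.11, adjusted p = 0.00247), with *Psma6* and *Psmc5* lower by 0.47 and 0.51. The count fell to 3 without NZBWF1 replicate 2, to 7 without NZB replicate 2 or without NZBWF1 replicate 3, to 8 without NZB replicate 3 and to 2 in cells with at least 2000 UMIs. Of all genes 8.23% were called without NZBWF1 replicate 2, 6.91% without NZB replicate 2, 10.6% without NZBWF1 replicate 3, 10.4% without NZB replicate 3 and 4.44% in the deeper cells, so that without NZBWF1 replicate 2 and in the deeper cells the share of the 43 genes was near that of all genes. The median ran from −0.31 to −0.26 with 1 mouse left out and was −0.16 in the deeper cells. Against NZW, the monocytes of NZBWF1 had a median of 0.08 and *Psme2b* as the called gene, with 1.14% of all genes called.

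Among the genes outside the naming rule, 6 of 25 partners were higher in NZB than in NZW monocytes, among them the ubiquitin gene *Ubb* and the deubiquitinase *Uchl5*, and *Psmf1*, which encodes the inhibitor PI31, was lower, against 11.6% and 10.1% of all genes. Their median was 0.22, and that of all genes −0.01. In NZBWF1, *Txnl1*, *Uchl5* and *Ubb* were lower than in NZB monocytes.

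Since the monocyte and promyelocyte classes differed between strains in dividing cells, dividing and non-dividing cells of the same lineage and mouse were compared. Of 191 tests in 5 lineages, 72 were higher in dividing cells and 14 lower, where 11288 of 22332 tests of all genes were called in either direction. In cells with at least 2000 UMIs 28 calls were made. The number of tests and the share of all genes called in those cells are not given, so that count does not show a change particular to these genes. In immature neutrophils 28 of 43 genes were higher and 4 lower, where 36% of all genes were higher and 34.9% lower. In pro-B and pre-B cells 21 of 40 were higher and 3 lower, against 27.6% and 29.8%, and in monocytes 15 of 42 were higher and 4 lower, against 23% and 24.4%. In mature B cells, where 6 mice had enough dividing cells, 7 of 24 were higher and 2 lower, against 24% and 23.5%. In promyelocytes 1 of 42 was higher, *Psmc1*, and 1 lower, *Psmc3ip*, against 7.96% and 9.01%.

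The cap ATPases led in immature neutrophils, monocytes and pro-B and pre-B cells. All 6 were higher in dividing immature neutrophils and 5 of 6 each in monocytes and in pro-B and pre-B cells. In promyelocytes 1 of 6 was higher and in mature B cells 1 of 2 tested. The ATPases were not tested against the other groups of subunits. *Psmc3* had a level of 83.0 to 104 CPM in dividing immature neutrophils (median 91.4) and 28.3 to 45.6 CPM in non-dividing ones (median 39.5). The 9 mice of each state did not overlap, and the log2 difference was 1.05 (SE 0.08, edgeR adjusted p = 1.72e-14). It was 0.57 in monocytes, 0.81 in pro-B and pre-B cells and 1.23 in mature B cells. *Psmc1* had a level of 84.5 to 140 CPM in dividing monocytes (median 101) and 49.9 to 71.2 CPM in non-dividing ones (median 58.2), a log2 difference of 0.78 (SE 0.11, adjusted p = 9.35e-08).

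Inducible and PA28 genes did not all move with the ATPases. *Psmb10* was lower in dividing cells, by 0.35 in monocytes and by 0.63 in pro-B and pre-B cells, where its level was 72.8 to 130 CPM in dividing cells (median 93.9) and 52.0 to 276 CPM in non-dividing cells (median 154), with overlap. *Psmb9* was higher by 0.31 in monocytes, 0.55 in pro-B and pre-B cells and 0.66 in mature B cells, and *Psmb8* was lower by 0.32 in pro-B and pre-B cells, so that the 3 inducible genes moved in different directions in that lineage. In immature neutrophils the *Psmb10* levels of 23.2 ± 5.9 CPM in dividing and 24.2 ± 7.1 CPM in non-dividing cells (SD, n = 9 mice) overlapped, and the difference of −0.27 after TMM scaling was called but lost in 10 of 15 alternatives. *Psme1* was lower by 0.36 in monocytes and 0.69 in mature B cells. In immature neutrophils its levels of 69.3 to 114 CPM in dividing cells (median 86.4) and 80.7 to 108 CPM in non-dividing cells (median 97.3) overlapped, and the difference after TMM scaling was −0.31, also called. Class I peptide loading genes were mostly lower in dividing cells of some lineages, 9 of 11 tested in monocytes, 7 of 12 in immature neutrophils and 6 of 9 in pro-B and pre-B cells. Of all genes 24.4%, 34.9% and 29.8% were lower there, and *Pdia3* was higher in immature neutrophils. The called ones were *Pdia3* and *H2-D1* in promyelocytes and *Calr*, *Tapbp* and *H2-D1* in mature B cells. All of these were lower, where 9.01% and 23.5% of all genes were. *Psmc3ip*, the recombination factor, was higher by 1.82 in pro-B and pre-B cells and 0.91 in immature neutrophils.

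**Figure D5:**
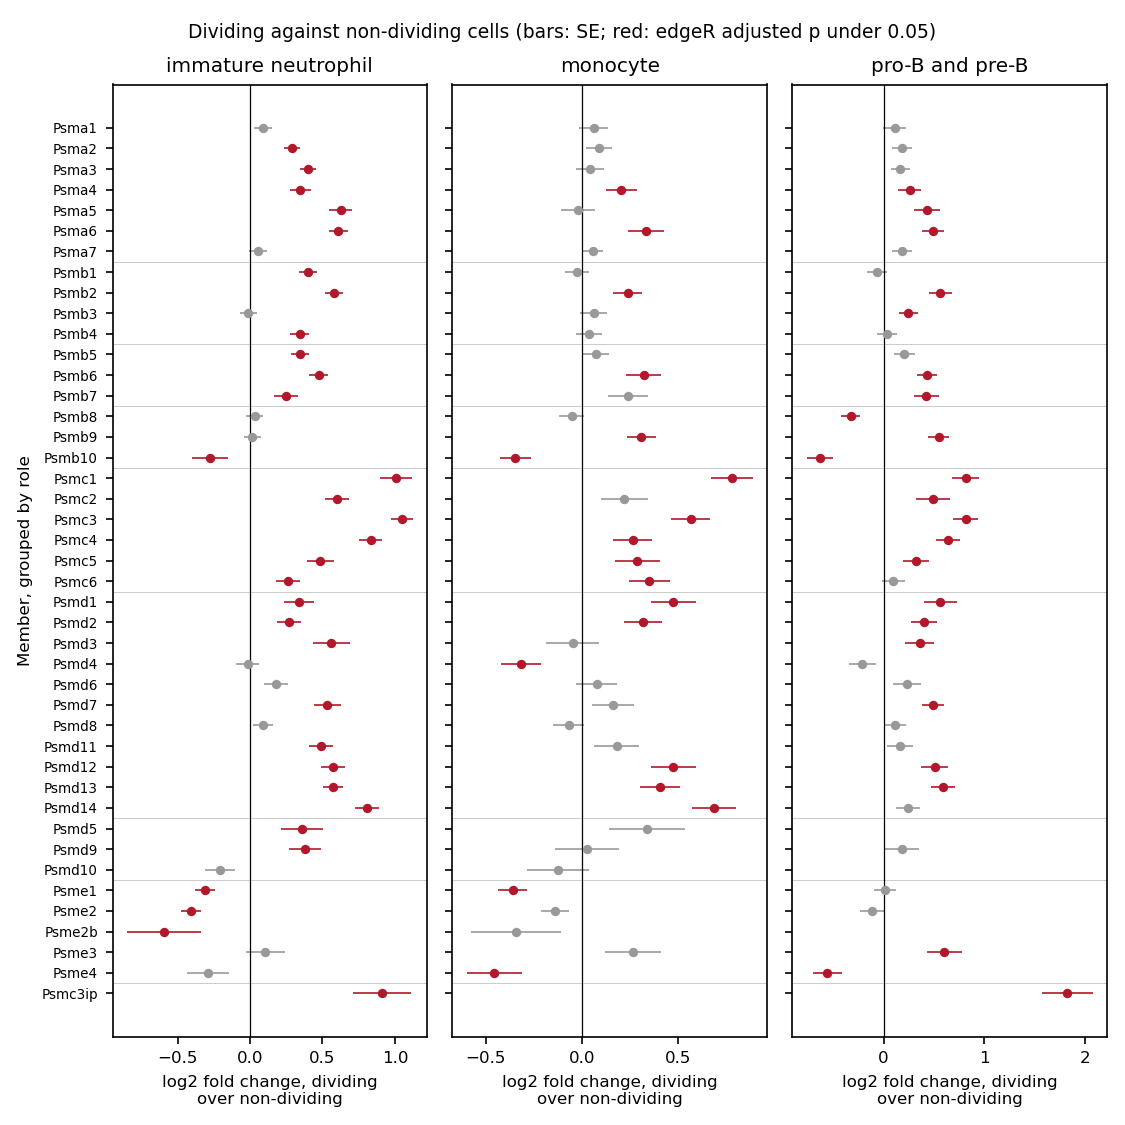
Log2 difference between dividing and non-dividing cells for each gene (rows, grouped by role) in immature neutrophils, monocytes, and pro-B and pre-B cells. Symbols are red where the edgeR adjusted p is under 0.05 and grey otherwise. The ATPases lie to the right in these lineages, and *Psmb10*, *Psme1* and *Psme2* lie to the left or near 0.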

How the data were processed

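Female NZB, NZW and NZBWF1 mice, 3 of each, gave 1 femur marrow library per mouse with the 10x 3′ v3.1 kit. Per the submitters' processing notes, Cell Ranger 3.1.0 and bcl2fastq 2.20 and the mm10 build were used, and the deposited values are UMI counts per gene and barcode, which the authors did not normalize. No source used here states if library depths were equalized on combination. Cells were assigned to mice by the library number in each barcode, read in the order of the deposited list of merged libraries, whose names are the sample titles. Cells were kept at 1000 UMIs, 500 genes and at most 10% mitochondrial UMIs, and classes were gated on marker genes, leaving out 7 markers that differed between strains. Cells in which an unrelated class scored over 0.6 times the top class score were left out, and no doublet caller was run. Counts were summed per mouse and class (at least 10 cells) and tested across all genes with edgeR 4.0.16 in R 4.3.3 (TMM, filterByExpr, robust quasi-likelihood, Benjamini-Hochberg adjustment within a class and comparison, threshold 0.05). Samples entered as separate mice without a block. Classes were compared with mouse as a term. Cells with a score of mitosis markers of at least 0.3 counted as dividing and those under 0.1 as non-dividing. Leaving out dividing cells kept the cells between. Alternatives were DESeq2 1.42.0, its size factors, no filter, deeper cells, stricter or fuller gates, cells without the top 5% of UMIs or without dividing cells, a replicate block, each mouse left out, and *Psme2* with *Psme2b* as 1 gene. The last, and the gate with all markers, were added after the data were seen. Named were the catalytic subunits and activators, the 12 others called in most classes between strains, the up to 3 largest called differences per direction in a class, genes with near copies and genes that passed no filter, and *Psma6* and *Psmd4* were named after their values were seen. Members and lists were chosen with earlier results of these data known. The tests were checked on simulated data. Intervals are exact 95% intervals. Total UMIs of 8106539 to 18663189 per mouse and as few as 10 cells per class limit the small classes.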

Additional observations from a re-analysis of the deposited data

Results flagged for a closer look

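For 5 of 43 genes tested the difference between strains depended on the class in the fit over 11 classes (edgeR, adjusted over all genes), where 10.8% of all 8708 genes passed. The share among the 43 genes was thus near that of all genes. *Psmb8* had an adjusted p of 2.6e-07, and the log2 difference between NZB and NZW ran from −0.12 in NK cells to 1.14 in plasmacytoid dendritic cells. *Psma3* had an adjusted p of 0.00665. Its level in mature neutrophils was 53.9, 89.5 and 82.3 CPM in NZB and 124, 147 and 135 CPM in NZW, and in T cells 186, 200.1 and 209 CPM in NZB and 303, 285 and 365 CPM in NZW, while in monocytes it was 323, 296 and 299 CPM in NZB and 248, 239 and 209 CPM in NZW. NZB thus lay below NZW in the first pair of classes and above it in monocytes, without overlap in each. Only the monocyte difference (0.41, adjusted p = 0.00362) and that in promyelocytes (0.40, adjusted p = 0.0092) were called among the separate classes, and the values in mature neutrophils (−0.70, SE 0.34) and T cells (−0.66, SE 0.33) were not.

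*Psmc2* had an adjusted p of 0.0325, with log2 differences from −0.11 in pro-B and pre-B cells to 0.79 in monocytes. *Psmc3* had an adjusted p of 0.0188 and *Psma2* one of 0.0371, and *Psma2* ran from −0.37 in mature neutrophils to 0.47 in monocytes. *Psmb8* was called in each of 16 alternatives, while the call was lost in 5 of them for *Psma3*, in 9 for *Psmc3* and *Psmc2* and in 10 for *Psma2*.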

How the results depend on the processing

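The count of called tests between NZB and NZW, 50, was 29 with DESeq2, 26 in cells with at least 2000 UMIs and 1000 genes, and 27 to 57 with 1 mouse left out, lowest without NZW replicate 3. Between NZBWF1 and NZB the count of 19 was 10 with DESeq2, 2 in deeper cells and 4 to 19 with 1 mouse left out, lowest without NZBWF1 replicate 2. In monocytes the share of all genes called in this comparison went from 14.7% to 8.33% with DESeq2 and to 4.44% in deeper cells. The pooled counts in this section lack the share of all gene tests under the same setting. They do not show if a fall was particular to these genes. Between NZBWF1 and NZW the count of 6 was 1 with *Psme2* and *Psme2b* as 1 gene and 1 in deeper cells, and 6 to 7 with 1 mouse left out. For NZBWF1 against the parents' mean log value, 3 calls became 1 with DESeq2, which gave a further one no adjusted p, 0 with the pair as 1 gene and 0 in deeper cells, and 2 to 3 with 1 mouse left out. The 332 calls of a class against the others became 220 in deeper cells and 304 to 333 with 1 mouse left out. The 5 genes whose strain difference depended on class became 2 in deeper cells, 3 with DESeq2's size factors and 1 to 7 with 1 mouse left out. The 86 calls between dividing and non-dividing cells became 28 in deeper cells and 69 to 85 with 1 mouse left out. Replicate numbers did not pair mice throughout: of 99 pairs of deviations, 29 correlated above 0.1 (−0.18 to 0.48), and in no class did every pair. With a replicate block the strain counts were 48, 18, 6 and 3. All 6 pairs of replicates 1 and 2 exceeded 0.1 in immature and mature neutrophils, T cells and NK cells, where those of replicate 3 did not, apart from 1 in mature neutrophils. In immature neutrophils the block moved NZB–NZW calls from 3 to 6 (all genes 12.4 to 18.2%) and NZBWF1–NZB calls from 1 to 3 (4.73 to 11.2%). The cause of these changes was not tested, but fewer cells remain in the deeper set. Of 3492 alternative values for 204 named tests, 3006 kept their direction and their side of the threshold, 479 kept the direction and lost the call, and 7 changed sign. In deeper cells *Psme2b* in T cells became −0.29, *Psmb9* in mature neutrophils −0.022, *Psme4* in promyelocytes 0.66 and *Psme4* in dividing against non-dividing pro-B and pre-B cells 0.33. *Psmd9* in monocytes ran from −0.43 to 0.13 with 1 mouse left out, and *Psmb9* in promyelocytes −0.22 with DESeq2 and −0.22 with its size factors alone. Small classes limit depth: 0 of 7 genes tested were called between strains in nonclassical monocytes and 0 of 3 in basophils or mast cells, with none at an unadjusted p under 0.05 between NZB and NZW (edgeR).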

Other observations

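Genes of class I peptide loading in NZB monocytes divided by role. *Calr* and *Pdia3*, chaperones of the endoplasmic reticulum, were higher in NZB than in NZW by 1.25 (SE 0.12, edgeR adjusted p = 4.42e-09) and 1.06 (SE 0.11, adjusted p = 1.59e-09), and *H2-D1* and *H2-K1* by 0.54 and 0.47. *Tapbp*, which encodes tapasin, stood at −0.62 (SE 0.13, adjusted p = 0.000533). The median over the 13 genes was −0.06. *H2-K1* and *H2-D1* vary in sequence between mouse strains, and the part of that variation in their counts was not tested.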
